A study of Mus musculus with 10 samples.

Results

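The genes examined here are those of Wnt signaling: the secreted Wnt ligands, the receptors at the cell surface, the inhibitors and agonists outside and inside the cell, and the factors that act in the nucleus. They were chosen by gene symbol alone, without regard to any measured value. All Wnt, Fzd, Sfrp and Rspo genes and Dkk1 to Dkk4 were included, together with Axin1, Axin2, Tcf7, Tcf7l1, Tcf7l2, Lef1, Lrp5, Lrp6, Ror1, Ror2, Nkd1, Nkd2, Znrf3, Rnf43 and Notum. This gave 56 of the 43346 genes in the deposited count table. By role, there were 19 ligands, 10 frizzled receptors, 4 co-receptors, 4 R-spondin agonists, 9 secreted inhibitors, 2 membrane ubiquitin ligases, 4 cytoplasmic inhibitors and 4 transcription factors.

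RNA came from O9-1 cells, a tetraploid mouse cell line of the cranial neural crest that was grown on Matrigel in medium conditioned by feeder cells. The 10 libraries comprised 4 biologically independent wildtype samples (WT), 3 clones with CRISPR/Cas9-induced mutations of Kat5 (Kat5-ko) and 3 clones with such mutations of Ep400 (Ep400-ko). Kat5, also known as Tip60, is the histone acetyltransferase and Ep400 the nucleosome remodeling ATPase of a shared chromatin complex, and each knockout was compared with the same wildtype libraries. Each clone was grown from a sorted single cell after editing with the same guide RNA per gene, and some Ep400-ko clones carry alleles with small in-frame deletions beside frameshifts.

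Wnt proteins are lipid-modified signals that bind frizzled receptors. With the co-receptors Lrp5 or Lrp6 they keep beta-catenin from being degraded, so that it can enter the nucleus and act with TCF/LEF factors, whereas with Ror co-receptors they act on cell shape and movement without beta-catenin. In the embryo, Wnt signals are known to induce the neural crest and to steer its later fates, and several genes of the pathway, among them Axin2, Nkd1, Notum, Rnf43, Znrf3 and Lef1, are well-known targets that feed back on it.

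Depth was 30968945 to 48301792 counts on genes per library. Levels are given as CPM, the usual depth-scaled count, after TMM scaling over all 10 libraries, and levels are compared between genes only as CPM per kb of exon. A count of 3 corresponded to 0.0661 to 0.0988 CPM, which is the upper limit that a count of 0 allows and covers counting error only. The edited genes checked the labels, with Kat5 at 48.8 to 57.5 CPM in WT and 16.4 to 23.2 CPM in Kat5-ko, and Ep400 at 157 to 165 CPM in WT and 54.7 to 61.4 CPM in Ep400-ko. Of 12 neural crest markers, 7 exceeded 1 CPM on average in WT, while Sox10, Foxd3 and Ngfr were below 1 CPM in all libraries. Clone Kat5/1 stood apart from the other Kat5-ko clones, since without it the count of genes called between Kat5-ko and WT rose from 84 to 2654.

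Not all Wnt genes could be tested. There were 3 genes without a count in any library (Fzd10, Wnt8b and Wnt9b) and 11 more that never exceeded 3 counts, namely Wnt1, Wnt3, Wnt3a, Wnt6, Wnt8a, Wnt11, Nkd1, Dkk1, Sfrp2, Sfrp4 and Sfrp5. Another 8 had somewhat more counts but remained below the filter in every comparison. Wnt1 and Wnt3a, the ligands best known from the dorsal neural tube, thus never exceeded the floor of 3 counts. Counts sufficed for a test of 30 genes between Kat5-ko and WT, of 34 between Ep400-ko and WT and of 32 between the knockouts, with 28 genes tested in all 3 comparisons and 22 in none. Ligand genes with counts lay next to ligand genes without, as Wnt9a reached 284 counts and Wnt3a, 16175 bases away on chromosome 11, at most 3. Similarly, Wnt10b reached 32 counts and Wnt1, 11706 bases away on chromosome 15, at most 3. In bulk RNA, fewer cells that make a transcript and less of it per cell cannot be told apart.

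**Figure D1:**
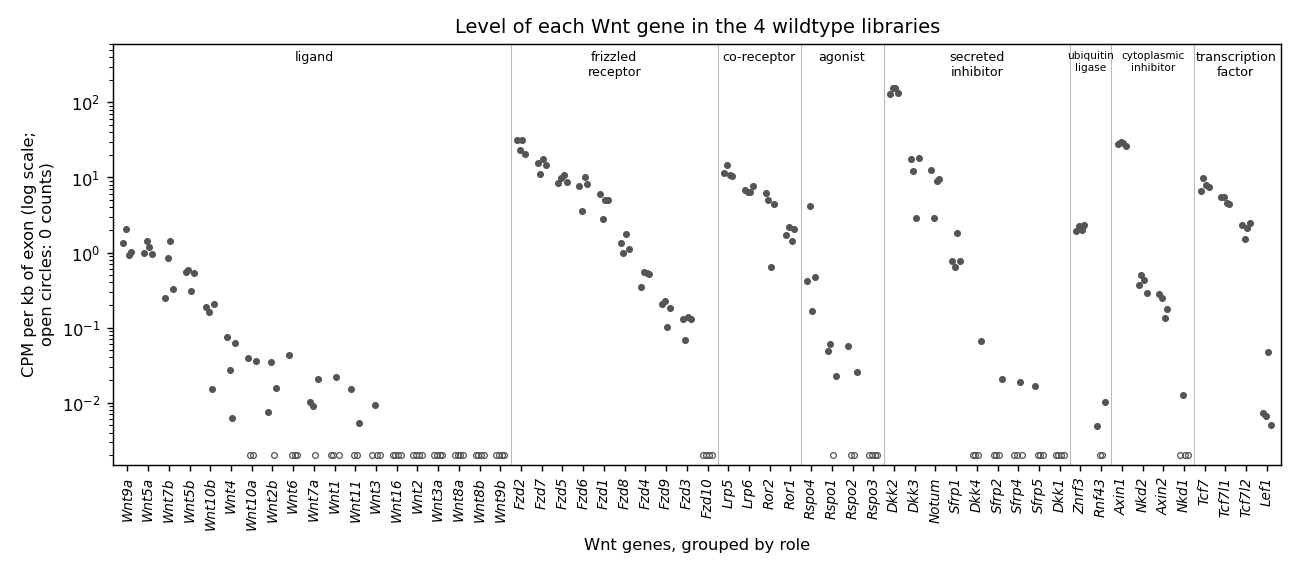
Level of each of the 56 Wnt genes in the 4 wildtype libraries, in CPM per kb of exon on a log axis, grouped by role and ordered by the mean within a role. Points are libraries, and open circles at the bottom stand for 0 counts. Dkk2 lies above all other genes with a mean of 144 CPM per kb, and most ligands lie below 1.

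In wildtype cells, the summed levels of secreted inhibitors and of frizzled receptors far exceeded that of ligands. Per kb of exon, Dkk2 had the highest mean of all 56 genes with 144 CPM per kb, followed by Axin1 with 28, Fzd2 with 26.6, Fzd7 with 14.7, Dkk3 with 12.6 and Lrp5 with 11.8. The ligands with the highest levels, Wnt9a and Wnt5a, had 1.33 and 1.14 CPM per kb, and all 19 ligands together summed to between 3.18 and 5.11 CPM per kb in the 4 WT libraries. The 10 frizzled genes summed to between 52.1 and 77.7 CPM per kb and the 9 secreted inhibitors to between 160 and 171 CPM per kb. Dkk2 alone made up 80.8% to 91.9% of the inhibitor sum, and 4 of the 9 inhibitors never exceeded 3 counts. Altogether, 28 genes had a WT mean of at least 1 CPM, 17 of at least 10 CPM and 3 of at least 100 CPM.

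A change was called at an adjusted p of at most 0.05 from edgeR's quasi-likelihood test, adjusted over all genes by the method of Benjamini and Hochberg. Called genes were counted as DEGs if they changed at least 1 log2 unit in size and 1 of the groups averaged over 100 normalized counts. Between Ep400-ko and WT, 9 of the 34 tested Wnt genes were called, or 26.5%, compared to 13.7% of all 13836 genes tested. All 9 were higher in Ep400-ko, where 8% of all genes were called higher and 5.72% lower. They were the ligands Wnt4 and Wnt7a, the receptors Fzd1, Fzd3, Fzd7 and Fzd8, the secreted inhibitor Sfrp1, the ubiquitin ligase Rnf43 and the cytoplasmic inhibitor Nkd2. As many as 6 of them were DEGs (17.6% of the genes tested, compared to 6.39% of all genes), namely Nkd2, Sfrp1, Fzd1, Fzd3, Fzd7 and Fzd8. In 11 Wnt genes every Ep400-ko clone lay above every WT library (16.1% of all genes did so), and in 0 every clone lay below (14.1% of all genes). The median log2-fold change was 0.14 over the 34 Wnt genes and 0.043 over all genes tested, with 22 Wnt genes above 0 and 12 below. Rnf43, Rspo2, Wnt4 and Wnt7a were untested in Kat5-ko against WT and passed the count filter here through their Ep400-ko counts. They could hardly be called lower in Ep400-ko, and they are part of the counts and shares above. Wnt7b and Wnt10b in turn passed through their WT counts. The 6 DEGs were tested in every comparison.

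Between Kat5-ko and WT, 0 of 30 Wnt genes were called by edgeR's quasi-likelihood test, where 0.625% of all 13434 genes were called. At an unadjusted p of at most 0.05 there were 6 of 30, compared to 22.3% of all genes. DESeq2's Wald test called 5 of 31 Wnt genes, compared to 1382 of all 14645 genes. limma voom called 1 of 30, compared to 98 of all 13434. No Wnt gene lay above WT in every Kat5-ko clone (9.66% of all genes did so), and 3 lay below WT in every clone (10.2% of all genes), namely Tcf7, Fzd4 and Wnt5b. The median log2-fold change was 0.018 over the Wnt genes and 3.2e-05 over all genes, with 15 above 0 and 15 below. Without clone Kat5/1, 7 of 33 Wnt genes were called, compared to 2654 of all 13703 genes tested. Of the 7, Znrf3 was higher (log2-fold change 0.96, adjusted p = 0.00767 from edgeR) and Tcf7, Tcf7l1, Dkk2, Wnt5b, Fzd4 and Lrp5 were lower. Without clone Kat5/2, Wnt5a alone was called, compared to 37 of all 13825 genes.

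**Figure D2:**
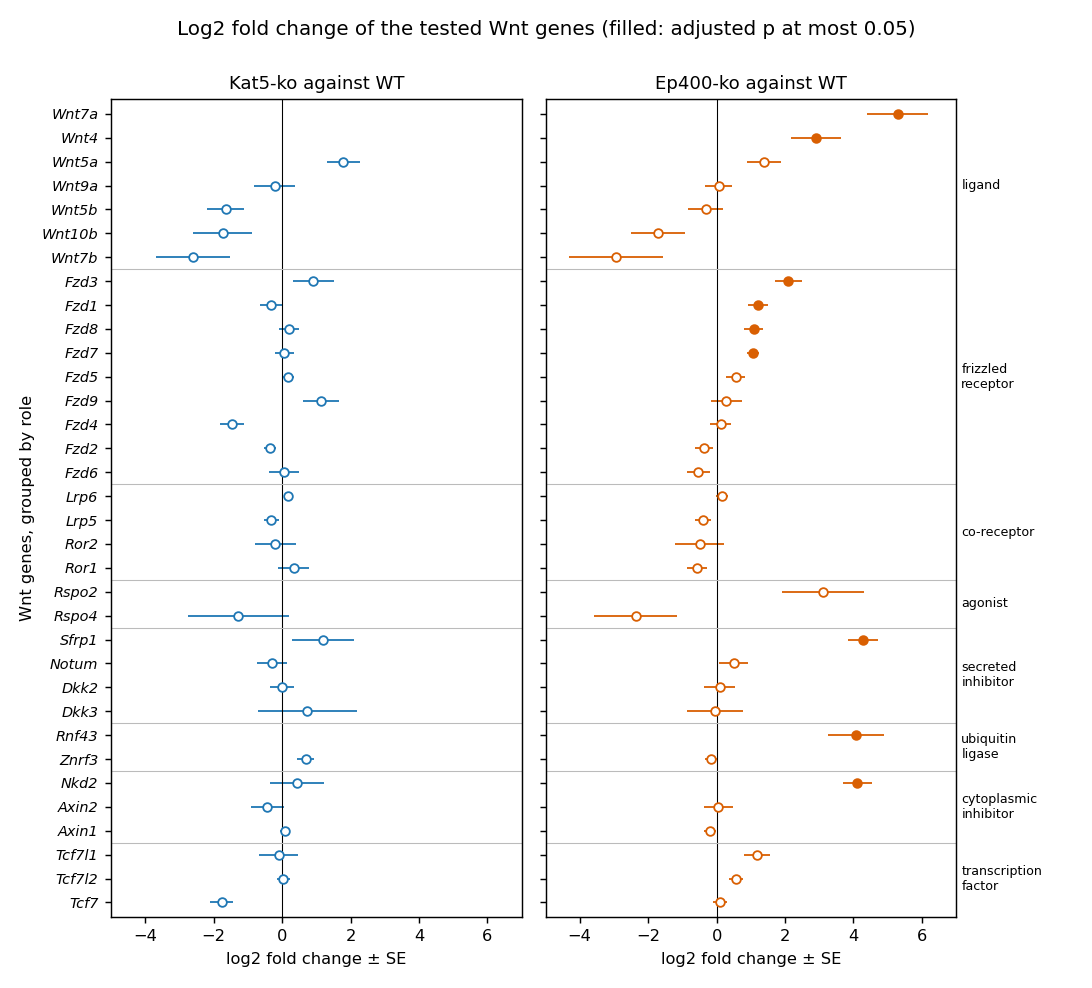
Log2-fold change with its standard error for the Wnt genes tested in Ep400-ko against WT (right) and the same genes in Kat5-ko against WT (left), grouped by role. Filled points have an adjusted p of at most 0.05 from edgeR, and genes without a point on the left were not tested there. The 9 filled points are all on the right and all above 0.

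The Wnt genes varied strongly between libraries of the same group, wildtype included. For each gene and group, the library with the highest level was divided by that with the lowest. In Kat5-ko this ratio had a median of 2.86 over 30 Wnt genes, compared to 1.58 over 13086 genes, and it was at least 4 in 11 of the 30 (36.7%, compared to 10.5% of all genes). Among Ep400-ko clones the median was 2.02, compared to 1.58, and among WT libraries 1.75, compared to 1.44. The ratio was at least 4 in 17.2% of the Wnt genes in Ep400-ko (8.1% of all genes) and in 20% in WT (6.81%). Wnt genes and all genes were not matched for level. Dkk3, a secreted glycoprotein related to the Dickkopf inhibitors, was an extreme case. It had 58.3, 40.8, 9.68 and 60.8 CPM in the WT libraries, 200.1, 0.0329 and 14.2 CPM in clones Kat5/1 to Kat5/3 and 4.27, 58.6 and 60.6 CPM in clones Ep400/1 to Ep400/3. The raw counts of Dkk3 in the Kat5-ko clones were 7264, 1 and 646, so that the groups overlapped widely and neither comparison with WT called it (adjusted p = 0.8 for Kat5-ko and 0.976 for Ep400-ko, edgeR).

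Among the ligands, Wnt7a and Wnt4 were higher in Ep400-ko. Wnt7a (ENSMUSG00000030093, mm10 chr6:91363981-91411363), a ligand known from limb patterning and the nervous system, had 0.0319, 0.0289, 0 and 0.0662 CPM in WT and 2.02, 1.94 and 0.298 CPM in the Ep400-ko clones. All clones lay above all WT libraries, but the WT values rested on 5 counts in total and the Ep400-ko values on 160. The ratio of the summed levels was 41.7 with an interval of 17.5 to 130 (95%, counting error only), and the fitted log2-fold change of 5.29 (SE 0.89, adjusted p = 0.0092, edgeR) depends on the prior count. In the Kat5-ko clones Wnt7a had 0, 0.0659 and 0.551 CPM and was too low for a test.

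Wnt4 (ENSMUSG00000036856, chr4:137277489-137299726), known for its part in kidney and gonad formation, had 0.319, 0.116, 0.0261 and 0.265 CPM in WT and 1.13, 2.4 and 0.622 CPM in Ep400-ko. The groups did not overlap, with 27 counts in WT and 150 in Ep400-ko, a ratio of 7.23 (counting interval 4.78 to 11.3). The log2-fold change was 2.91 (SE 0.74, adjusted p = 0.0354, edgeR). Clone Kat5/2 reached 2.8 CPM, more than any Ep400-ko clone, whereas clones Kat5/1 and Kat5/3 had 0.0275 and 0.0661 CPM. The call of Wnt4 was lost without clone Ep400/1 (adjusted p = 0.051), Ep400/2 (0.103), WT/1 (0.0634), WT/2 (0.0937) or WT/4 (0.0763).

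Wnt5a, the main ligand of the Ror receptors, had 7.73, 11.1, 9.39 and 7.51 CPM in WT, 55.1, 9.82 and 29.1 CPM in Kat5-ko and 5.84, 38.3 and 26 CPM in Ep400-ko. In each knockout 2 clones lay well above WT, while Kat5/2 fell within the WT range and Ep400/1 below it. Its log2-fold change was 1.79 in Kat5-ko (SE 0.48, adjusted p = 0.0954) and 1.39 in Ep400-ko (SE 0.51, adjusted p = 0.101, both edgeR). Without Kat5/2 the adjusted p was 0.0386 for Kat5-ko, and without Ep400/1 it was 0.00809 for Ep400-ko. These were the clones not above WT, so the lower values follow largely from leaving them out. With all clones kept, DESeq2's Wald test called Wnt5a in Kat5-ko (adjusted p = 0.00343) and in Ep400-ko (0.0341), and limma voom called it in neither. Wnt5a made up 27.7% to 30.7% of the summed ligand level per kb in WT, 44.4% to 76.4% in Kat5-ko and 22.2% to 57% in Ep400-ko.

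Wnt5b, the close relative of Wnt5a, had 1.47, 1.53, 0.809 and 1.41 CPM in WT and 0.744, 0.231 and 0.286 CPM in Kat5-ko. The clones lay below all WT libraries, but the log2-fold change of -1.65 (SE 0.53) was not called (adjusted p = 0.134, edgeR), and was called without Kat5/1 (adjusted p = 0.02). With all clones kept, DESeq2's Wald test called Wnt5b lower in Kat5-ko (adjusted p = 0.034). Fbxl14, with up to 67.5 CPM, overlaps Wnt5b on the opposite strand, and since the strand setting of the counting is not given in the sources used here, reads of both genes cannot be told apart. Wnt5b had 1.88, 0.593 and 0.647 CPM in Ep400-ko.

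Wnt9a, linked to joint and skeletal development, was the ligand with the highest level per kb in WT. It had 4.44, 6.79, 3.08 and 3.38 CPM in WT, 7.82, 1.28 and 2.47 CPM in Kat5-ko and 2.79, 6.22 and 4.88 CPM in Ep400-ko, with groups that overlapped. Wnt7b had 1.21, 4.1, 7.04 and 1.59 CPM in WT, 0.11, 1.58 and 0.11 CPM in Kat5-ko and 0, 1.37 and 0.0249 CPM in Ep400-ko. For Wnt7b, the log2-fold changes of -2.60 in Kat5-ko (SE 1.08, adjusted p = 0.205) and -2.94 in Ep400-ko (SE 1.37, adjusted p = 0.177, edgeR) were not called, and in each knockout 1 clone lay within the WT range. Without clone Ep400/2, the one within the WT range, the change of Wnt7b was called, with an adjusted p of 0.0157. That call follows largely from the choice of the clone. With all clones kept, limma voom called Wnt7b lower in Ep400-ko (log2-fold change -5.16, adjusted p = 0.0496). DESeq2's Wald test called it lower in Kat5-ko (log2-fold change -2.57, adjusted p = 0.0366). Wnt10b was at 0.0522 to 0.707 CPM in WT and at most 0.275 CPM in the clones, with an adjusted p of 0.169 in Ep400-ko that became 0.0324 without WT/3. Wnt16, a ligand known from bone, had no count in any WT or Kat5-ko library and 1, 4 and 101 counts in the Ep400-ko clones, so that nearly all its reads came from Ep400/3.

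Among the receptors, 4 of 9 tested frizzled genes rose in Ep400-ko and 0 fell, where 8% of all genes were called higher and 5.72% lower. Fzd7 (ENSMUSG00000041075, chr1:59482424-59486955), a receptor known from stem cells and early embryos, had 70, 50.6, 79.7 and 67 CPM in WT, 44.3, 69.7 and 101 CPM in Kat5-ko and 113, 163 and 143 CPM in Ep400-ko. All Ep400-ko clones exceeded all other libraries. Its log2-fold change was 1.06 (SE 0.19, adjusted p = 0.0106, edgeR), from a mean of 66.8 ± 12.1 CPM (SD, n = 4) to 139.8 ± 25.2 CPM (SD, n = 3). With any library left out Fzd7 remained called, at log2-fold changes of 0.92 to 1.19.

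Fzd1 (ENSMUSG00000044674, chr5:4753839-4758035), a close relative of Fzd7 in sequence, had 25.5, 11.7, 21.1 and 21.1 CPM in WT, 9.67, 22 and 17 CPM in Kat5-ko and 30.1, 56.5 and 52 CPM in Ep400-ko. The Ep400-ko clones again exceeded all other libraries, with a log2-fold change of 1.22 against WT (SE 0.30, adjusted p = 0.0313, edgeR). That call was lost without Ep400/2 (adjusted p = 0.0887), Ep400/3 (0.0751), WT/1 (0.0522), WT/2 (0.0528), WT/3 (0.0576) or WT/4 (0.0777). Between the knockouts, Fzd1 had a log2-fold change of 1.49 and an adjusted p of 0.0516.

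Fzd3 (ENSMUSG00000007989, chr14:65192449-65262463), a receptor required for axon guidance and planar cell polarity, had 1.66, 0.867, 1.75 and 1.68 CPM in WT, 2.81, 5.07 and 0.727 CPM in Kat5-ko and 4.27, 9.25 and 5.7 CPM in Ep400-ko. The Ep400-ko clones lay above all WT libraries, and clone Kat5/2 lay within the Ep400-ko range. The log2-fold change of Fzd3 in Ep400-ko was 2.10 (SE 0.39, adjusted p = 0.0126, edgeR) and remained called with any library left out. Fzd8, which binds Wnt proteins together with Lrp6, had 8.08, 5.86, 10.4 and 6.65 CPM in WT, 6.53, 8.53 and 12.1 CPM in Kat5-ko and 11.5, 20.5 and 17.7 CPM in Ep400-ko. The log2-fold change of Fzd8 was 1.09 (SE 0.28, adjusted p = 0.0355, edgeR). The lowest Ep400-ko clone was only slightly above the highest WT library, and the call was lost without Ep400/2 (adjusted p = 0.106), Ep400/3 (0.0694), WT/1 (0.0928), WT/2 (0.0892) or WT/4 (0.0972).

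Fzd2, the frizzled gene with the highest level per kb in WT, was not called. It had 114, 84, 116 and 75 CPM in WT, 72.5, 75.5 and 85.7 CPM in Kat5-ko and 53.3, 65.9 and 107 CPM in Ep400-ko, and its log2-fold change in Ep400-ko was -0.37 (SE 0.26, adjusted p = 0.365, edgeR). Fzd5 had 58.7, 67.7, 74.8 and 59.8 CPM in WT, 63.9, 92.8 and 70.8 CPM in Kat5-ko and 101, 134 and 53 CPM in Ep400-ko, where 2 clones were above and Ep400/3 below all WT libraries. Without Ep400/3, Fzd5 had a log2-fold change of 0.85 and an adjusted p of 0.02, which follows largely from leaving out the clone below WT. Fzd4, best known from retinal vessels as the receptor for Norrin, had 2.33, 3.67, 3.55 and 3.49 CPM in WT, 1.02, 1.55 and 1.06 CPM in Kat5-ko and 4.27, 2.87 and 3.53 CPM in Ep400-ko. It was thus lower in all Kat5-ko clones than in any other library, with a log2-fold change against WT of -1.46 (SE 0.35, adjusted p = 0.0805, edgeR) that was called without Kat5/1 (adjusted p = 0.0453). With all clones kept, DESeq2's Wald test called Fzd4 lower in Kat5-ko (adjusted p = 0.000754). Fzd6 at 16.8 to 51.6 CPM and Fzd9 at 0.235 to 1.48 CPM overlapped between the groups.

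As a share of the summed frizzled level per kb, Fzd2 was first in all WT libraries with 34.6% to 44%, followed by Fzd7 with 21.4% to 25%. In the Ep400-ko clones Fzd7 was first with 34.6% to 37.2%, and Fzd2 had 18.6% to 32.1%. The Fzd1 share was 5.34% to 8.56% in WT and 10.5% to 13.9% in Ep400-ko. None of these 3 shares overlapped between WT and Ep400-ko. In the Kat5-ko clones Fzd2 remained first with 31% to 42.8%, and Fzd7 had 21.1% to 30.2%. The shares describe the balance among the frizzled transcripts and were not tested.

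**Figure D3:**
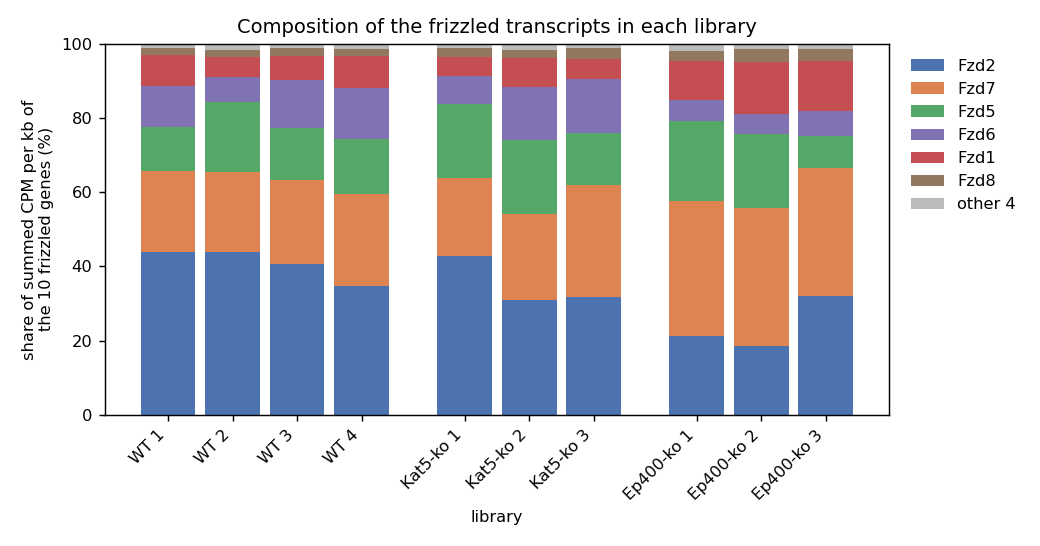
Share of each frizzled gene in the summed CPM per kb of the 10 frizzled genes, as stacked bars for the 10 libraries, with Fzd3, Fzd4, Fzd9 and Fzd10 drawn together. Fzd2 is the largest part in the WT and Kat5-ko bars and Fzd7 in the 3 Ep400-ko bars.

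Promoter sequences of Fzd7, Fzd1 and Nkd2 are shown because these genes rose together in Ep400-ko and because the stretch before their RefSeq start touches no annotated exon. Each run gives the 250 bases before the start on the strand of the gene, 5′ to 3′, in build GRCm38.p6. Capitals mark letters that TCF/LEF factors are known to prefer. The letters searched were AACAAAG (on the other strand this reads CTTTGTT), then ATCAAAG (on the other strand this reads CTTTGAT), then TACAAAG (on the other strand this reads CTTTGTA) and last TTCAAAG (on the other strand this reads CTTTGAA).
Fzd7, chr1:59481897-59482146, plus strand: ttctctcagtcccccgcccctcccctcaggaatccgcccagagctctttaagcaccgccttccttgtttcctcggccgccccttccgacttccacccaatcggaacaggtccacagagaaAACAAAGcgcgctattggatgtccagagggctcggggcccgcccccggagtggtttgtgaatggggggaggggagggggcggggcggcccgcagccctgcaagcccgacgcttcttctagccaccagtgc
Fzd1, chr5:4758217-4758466, minus strand: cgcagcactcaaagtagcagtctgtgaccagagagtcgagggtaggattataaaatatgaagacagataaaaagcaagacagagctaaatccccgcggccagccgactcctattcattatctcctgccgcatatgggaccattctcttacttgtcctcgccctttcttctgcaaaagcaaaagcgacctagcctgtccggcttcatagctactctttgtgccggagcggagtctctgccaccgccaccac
Nkd2, chr13:73847632-73847881, minus strand: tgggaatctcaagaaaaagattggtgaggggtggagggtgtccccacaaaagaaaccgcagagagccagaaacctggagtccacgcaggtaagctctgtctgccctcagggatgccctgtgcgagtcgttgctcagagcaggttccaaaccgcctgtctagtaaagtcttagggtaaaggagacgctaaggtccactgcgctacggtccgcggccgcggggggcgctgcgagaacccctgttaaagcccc
The Fzd7 stretch held 1 match, AACAAAG, which begins 130 bases before the start, and the Fzd1 and Nkd2 stretches held none. RefSeq windows of 300 bases (250 before and 50 after a start) were at hand for 37 of the 56 genes. Of these, 7 held a match (18.9%), compared to 18.9% of 27025 genes with a window. The median number of CpG dinucleotides was 25 in the windows of the Wnt genes and 7 in those of all genes. A match of letters is a description of the sequence and no evidence of binding.

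No co-receptor was called in any comparison. Lrp5, which binds Wnt proteins beside the frizzled receptor, had 111, 142, 105 and 102 CPM in WT, 125, 72.7 and 83.8 CPM in Kat5-ko and 56.9, 99.1 and 106 CPM in Ep400-ko. Its close relative Lrp6 had 92.2, 86.6, 86.6 and 105 CPM in WT, 94, 115 and 113 CPM in Kat5-ko and 94, 84.8 and 130 CPM in Ep400-ko. Neither was called, with log2-fold changes between -0.39 and 0.18 in the comparisons with WT, although Lrp5 was called lower in Kat5-ko without Kat5/1 (log2-fold change -0.58, adjusted p = 0.0478). Ror2, the receptor tyrosine kinase for Wnt5a, had 26.3, 21.3, 2.74 and 18.6 CPM in WT, 12.5, 12.6 and 21.1 CPM in Kat5-ko and 4.31, 21.3 and 11 CPM in Ep400-ko, so that WT/3 was the lowest of all libraries. Ror1 ranged from 4.78 to 25.5 CPM.

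The agonists of the R-spondin family, which keep frizzled receptors at the surface, were scarce. Rspo4 had 0.99, 9.79, 0.391 and 1.13 CPM in WT, 3.58, 0.0329 and 0.198 CPM in Kat5-ko and 0.375, 1.28 and 0.149 CPM in Ep400-ko, and was high in WT/2 only. Rspo2 had 0.287, 0, 0 and 0.132 CPM in WT, 0.275, 0.0659 and 0.33 CPM in Kat5-ko and 1.15, 0.0625 and 1.49 CPM in Ep400-ko, with an adjusted p of 0.116 in Ep400-ko. Rspo1 had 0.0958, 0.116, 0 and 0.0442 CPM in WT, no count in Kat5-ko and 0.211, 0.0937 and 0.249 CPM in Ep400-ko. Neither Rspo1 nor Rspo3 exceeded 10 counts, and both remained untested. The R-spondins act through Znrf3 and Rnf43, the membrane ubiquitin ligases that remove frizzled receptors. Rnf43 (ENSMUSG00000034177, chr11:87662722-87735539) had 0.0319, 0, 0 and 0.0662 CPM in WT, 0.22, 0 and 0.022 CPM in Kat5-ko and 0.656, 0.312 and 0.497 CPM in Ep400-ko. All Ep400-ko clones lay above all other libraries, with 58 counts in Ep400-ko and 4 in WT, a ratio of 18.9 (counting interval 6.99 to 71.6). The fitted log2-fold change of Rnf43 was 4.07 (SE 0.81, adjusted p = 0.0157, edgeR) and depends on the prior count.

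Znrf3 was the more abundant of these ligases, with a WT mean of 2.13 CPM per kb compared to 0.0037 for Rnf43. It had 15.5, 17.7, 15.8 and 18.1 CPM in WT, 15.9, 32 and 34.9 CPM in Kat5-ko and 16.9, 13.9 and 14.2 CPM in Ep400-ko. Clones Kat5/2 and Kat5/3 were above all other libraries and Kat5/1 was within the WT range, with a log2-fold change of 0.68 in Kat5-ko (SE 0.25, adjusted p = 0.169, edgeR).

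Sfrp1 (ENSMUSG00000031548, chr8:23411502-23449632), a secreted protein that binds Wnt ligands through a frizzled-like domain, was among the genes that rose in Ep400-ko. It had 3.38, 2.77, 7.96 and 3.42 CPM in WT and 82.3, 49.7 and 123 CPM in Ep400-ko, a log2-fold change of 4.28 (SE 0.45, adjusted p = 0.00228, edgeR). The Kat5-ko clones were split, with 10.5, 0.428 and 19.9 CPM. In 2 of them Sfrp1 was above all WT libraries and in Kat5/2 below, and its log2-fold change of 1.20 (SE 0.91) was not called (adjusted p = 0.468). Sfrp1 remained called in Ep400-ko with any library left out, at log2-fold changes of 3.91 to 4.72. It made up 0.371% to 1.07% of the summed level of the secreted inhibitors per kb in WT and 3.29% to 22.3% in Ep400-ko.

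Dkk2, a secreted ligand of Lrp5 and Lrp6 that can inhibit or activate depending on context, remained the main secreted inhibitor in every group. It had 478, 575, 581 and 495 CPM in WT, 928, 332 and 363 CPM in Kat5-ko and 321, 1119 and 262 CPM in Ep400-ko. In each knockout 1 clone exceeded and 2 clones fell below all WT libraries. The log2-fold changes were close to 0 in both comparisons, at -0.00034 (SE 0.35) and 0.090 (SE 0.45). Without the high clone, Dkk2 was called lower, at -0.65 in Kat5-ko without Kat5/1 (adjusted p = 0.0187) and at -0.89 in Ep400-ko without Ep400/2 (adjusted p = 0.0284, edgeR). These calls follow largely from leaving out the clone on the other side of WT. Notum, an extracellular enzyme that removes the lipid from Wnt proteins, had 30.1, 6.93, 21.7 and 23.2 CPM in WT, 19.4, 12 and 20 CPM in Kat5-ko and 28.6, 35.4 and 22.7 CPM in Ep400-ko, and was not called.

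Nkd2 (ENSMUSG00000021567, chr13:73818534-73847631) encodes a cytoplasmic protein that binds Dishevelled and restrains Wnt signals. It had 1.79, 2.4, 2.06 and 1.39 CPM in WT, 5.21, 0.198 and 2.38 CPM in Kat5-ko and 17.8, 56.3 and 25.3 CPM in Ep400-ko. Every Ep400-ko clone exceeded every other library, and the log2-fold change against WT was 4.12 (SE 0.41, adjusted p = 0.00209, edgeR). This was the lowest adjusted p of the 34 Wnt genes, and the call remained with any library left out, at log2-fold changes of 3.47 to 4.41. In Kat5-ko, clone Kat5/2 was below and Kat5/1 above all WT libraries (log2-fold change 0.42, adjusted p = 0.79). Nkd2 and Sfrp1 were both lowest in Kat5/2 among all 10 libraries.

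The axins are scaffold proteins of the complex that degrades beta-catenin, and neither was called. Axin1 had 108, 112, 109 and 100.0 CPM in WT, 109, 138 and 104 CPM in Kat5-ko and 121, 90.9 and 72 CPM in Ep400-ko, with log2-fold changes of 0.09 and -0.18 that were not called. Axin2, widely used as a readout of beta-catenin signals, was low throughout with 1.53, 1.39, 0.73 and 0.972 CPM in WT, 0.386, 1.12 and 1.12 CPM in Kat5-ko and 1.05, 1.62 and 0.92 CPM in Ep400-ko. Its log2-fold change was -0.43 in Kat5-ko (SE 0.49, adjusted p = 0.641) and 0.054 in Ep400-ko (SE 0.41, adjusted p = 0.942, edgeR). Nkd1, another well-known target, never exceeded 2 counts.

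**Figure D4:**
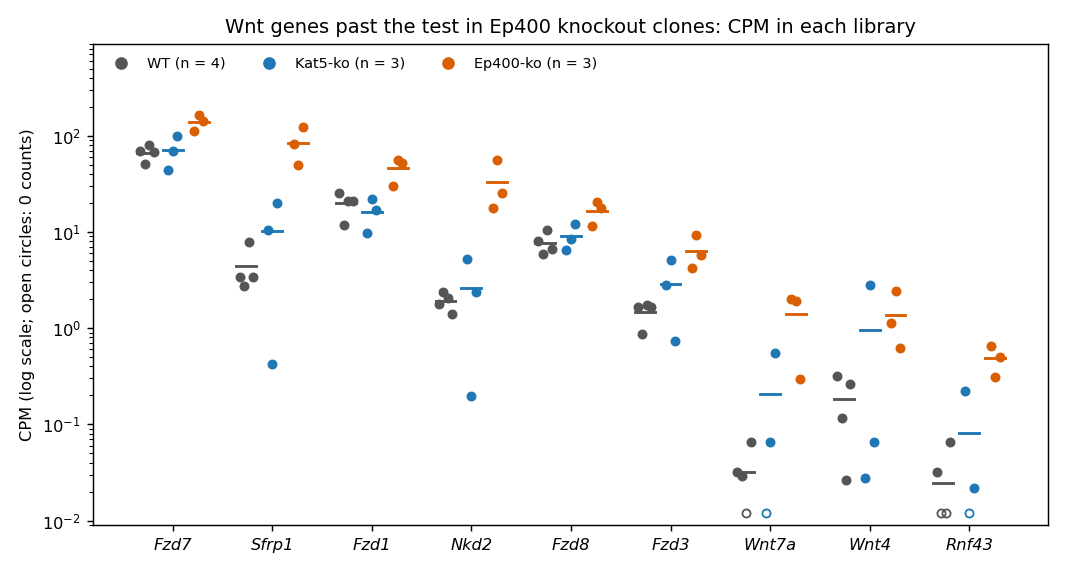
CPM on a log axis in each library for the 9 Wnt genes called in Ep400-ko against WT, in order of their Ep400-ko mean. Points are libraries, lines are group means and open circles stand for 0 counts. The 3 Ep400-ko points lie above the 4 WT points for each gene, while the Kat5-ko points are spread around or between them.

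Among the TCF/LEF factors, which carry the signal in the nucleus, Tcf7 differed between the knockouts. Tcf7 (ENSMUSG00000000782, chr11:52252371-52283014), also called TCF1, had 17.1, 25.8, 20.6 and 19.5 CPM in WT, 3.09, 8.63 and 7.01 CPM in Kat5-ko and 18.8, 28.1 and 20.1 CPM in Ep400-ko. All Kat5-ko clones lay below all other libraries, and the Ep400-ko clones overlapped with WT. Against WT, the log2-fold change was -1.77 in Kat5-ko (SE 0.34, adjusted p = 0.0648) and 0.10 in Ep400-ko (SE 0.21, adjusted p = 0.762, edgeR). The decrease in Kat5-ko was called in 6 of 17 alternative settings, among them DESeq2's Wald test (adjusted p = 4.4e-05), limma voom (0.05) and edgeR without Kat5/1 (0.00808), with adjusted p from 4.4e-05 to 0.181 overall.

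Compared directly, Tcf7 was higher in Ep400-ko than in Kat5-ko, with a log2-fold change of 1.82 (SE 0.41, adjusted p = 0.0453, edgeR). It was the only gene called among 32 tested between the knockouts, or 3.12%, compared to 7.05% of all 13587 genes, with 4.22% of all genes called higher in Ep400-ko. The call was lost without Ep400/1 (adjusted p = 0.0658), Ep400/2 (0.121), Ep400/3 (0.111), Kat5/2 (0.0813) or Kat5/3 (0.15). In 9 of the 32 genes every Ep400-ko clone lay above every Kat5-ko clone (20.5% of all genes did so) and in 0 below (18%). Besides Tcf7 and Fzd1, these included Nkd2 (log2-fold change 3.64, adjusted p = 0.0618), Fzd4 (1.54, 0.0654) and Sfrp1 (3.02, 0.0978). The median log2-fold change between the knockouts was 0.46 over the 32 genes and 0.0063 over all genes. Rnf43, Rspo2, Wnt4 and Wnt7a are among the 32 through their Ep400-ko counts, so they could hardly be lower there. Since the 2 comparisons with WT share the wildtype libraries, only this direct comparison addresses a difference between the knockouts. Without Kat5/1, 7 of 34 Wnt genes were called between the knockouts, compared to 2537 of all 14095 genes tested. A fit of all 10 libraries called 7 of 35, compared to 3555 of all 14079.

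Tcf7l1, mostly a repressor in stem cells, had 21.5, 21.7, 17.9 and 17.5 CPM in WT, 40.9, 6.98 and 7.87 CPM in Kat5-ko and 32.3, 22.5 and 79 CPM in Ep400-ko. The Ep400-ko clones lay above all WT libraries, but the log2-fold change of 1.18 (SE 0.38) was not called (adjusted p = 0.0709, edgeR). It was called without Ep400/2 (log2-fold change 1.47, adjusted p = 0.0291, edgeR). With all clones kept, DESeq2's Wald test called Tcf7l1 higher in Ep400-ko (log2-fold change 1.15, adjusted p = 0.0222). In Kat5-ko, Kat5/1 was above and the other clones below WT, and without Kat5/1 the gene was called lower (log2-fold change -1.44, adjusted p = 0.00543). Both calls made without a clone follow in part from leaving out the clone that went least with the change. Tcf7l2 had 20.4, 13.2, 18.7 and 22 CPM in WT, 19, 19.3 and 20.2 CPM in Kat5-ko and 24.1, 26.7 and 32.4 CPM in Ep400-ko, where its log2-fold change of 0.58 (SE 0.21) had an adjusted p of 0.0952. Lef1, a target and effector of the pathway, had at most 16 counts in a library and was not tested. Per kb, Tcf7 made up 45.5% to 58.2% of the TCF/LEF transcripts in WT and 8.55% to 45.2% in Kat5-ko, and in clone Kat5/1 Tcf7l1 took 75.7%.

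**Figure D5:**
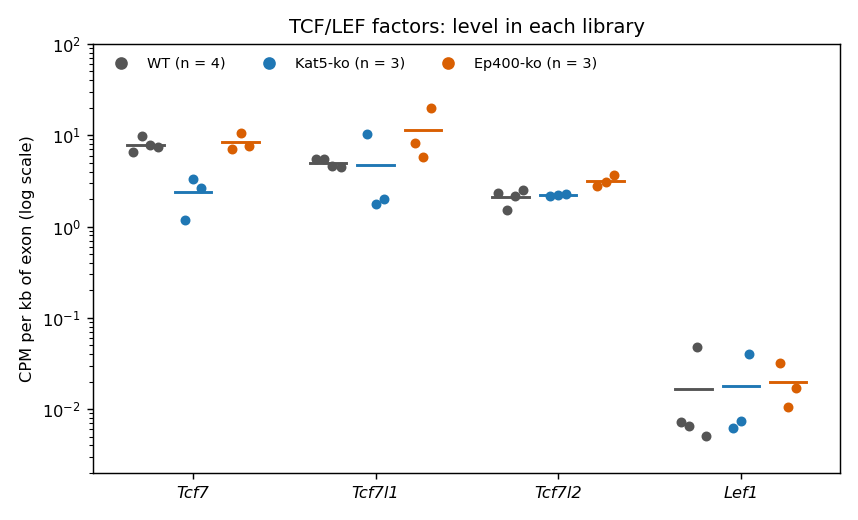
CPM per kb of exon on a log axis for the 4 TCF/LEF factors in each library. Points are libraries and lines are group means. The 3 Kat5-ko points of Tcf7 lie below all its other points, and those of Tcf7l1 lie on both sides of WT.

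Other genes of the pathway were counted in 5 lists with 88 genes in the table. Of these, 68 were tested between Kat5-ko and WT and 0 were called by edgeR, compared to 0.625% of all genes. At an unadjusted p of at most 0.05 there were 19 of 68, compared to 22.3% of all genes. DESeq2 called 7 of 70, compared to 1382 of all 14645 genes, and limma voom 0 of 68, compared to 98 of all 13434. Between Ep400-ko and WT, 70 were tested, of which 8 were higher and 2 lower. This was 14.3%, close to the 13.7% of all genes that were called. DESeq2 called 18 of 74, compared to 3175 of all 16326 genes, and limma voom 7 of 70, compared to 1888 of all 13836. Over all genes, 8% were called higher and 5.72% lower. The list of partners of Wnt proteins outside the cell or in the membrane, 1 of the 5 lists, had 5 of 12 tested genes higher and 0 lower. They were Frzb, a secreted relative of the Sfrp inhibitors (log2-fold change 5.61, SE 0.63, adjusted p = 0.0027), Apcdd1, a membrane inhibitor (2.95, SE 0.43, adjusted p = 0.0059), Porcn, the enzyme that attaches the lipid to Wnt proteins (1.74, SE 0.46, adjusted p = 0.0411), Reck, a co-factor for Wnt7a signals (1.45, SE 0.41, adjusted p = 0.0493) and the receptor Ryk (0.43, SE 0.12, adjusted p = 0.0499, all edgeR). Frzb had 0.32, 0.12, 0.23 and 0.35 CPM in WT, at most 0.03 CPM in Kat5-ko and 7.71, 5.87 and 24.6 CPM in Ep400-ko. It was also higher in Ep400-ko than in Kat5-ko (adjusted p = 0.0167, edgeR). However, Frzb was untested in Kat5-ko against WT and passed the count filter in the other comparisons through its Ep400-ko counts. It could hardly be called lower in Ep400-ko, and it is part of the counts above.

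Of 23 genes of the beta-catenin destruction complex and cytoplasmic relay, 0 were higher and only Csnk1e, a casein kinase, was lower in Ep400-ko (log2-fold change -0.80, SE 0.22, adjusted p = 0.046). Among 14 nuclear partners of beta-catenin, Pygo1 (2.60, SE 0.48, adjusted p = 0.0127) and the co-repressor Tle4 (1.35, SE 0.22, adjusted p = 0.0085) were higher. In the planar cell polarity list of 13 tested genes, Prickle2 was higher (1.40, SE 0.24, adjusted p = 0.0099) and Vangl2 lower (-1.17, SE 0.32, adjusted p = 0.0442, edgeR). Prickle2 was also higher in Ep400-ko than in Kat5-ko (2.55, SE 0.53, adjusted p = 0.0407). None of 8 tested targets of beta-catenin and TCF outside the Wnt genes was called in Ep400-ko against WT, and Msx1 was higher in Ep400-ko than in Kat5-ko (2.33, SE 0.50, adjusted p = 0.0415). Beta-catenin itself, Ctnnb1, ranged from 485 to 644 CPM in the 10 libraries.

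Sums of some marker lists differed between the groups. The summed level of 8 cranial mesenchyme markers, of which 6 exceeded 1 CPM in WT and Alx1 and Alx4 were below 1 CPM in all libraries, was 956 to 1328 CPM in WT, 929 to 1118 CPM in Kat5-ko and 2009 to 3339 CPM in Ep400-ko. Lower sums in Ep400-ko were found for the endothelial and blood markers, with 279 to 641 CPM in WT, 530 to 993 CPM in Kat5-ko and 44.4 to 206 CPM in Ep400-ko, although Cdh5 and Ptprc were below 1 CPM in all libraries. The 5 smooth muscle markers summed to 5.86 to 16.7 CPM in WT, 0.461 to 685 CPM in Kat5-ko and 2.34 to 58.8 CPM in Ep400-ko. Cnn1, Myh11 and Des were below 1 CPM in all libraries, so the high sums came from Acta2 and Tagln alone. Markers of pluripotent cells summed to at most 0.11 CPM in any library. The part of these differences in the results above was not tested. Whole chromosomes were shifted in libraries of the tetraploid line, by medians of -0.35 to 0.30 on the log2 scale in the clones and of -0.31 to 0.14 in WT libraries, and the shift of the chromosomes of the 9 called genes in Ep400-ko clones was -0.25 to 0.14.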

How the data were processed

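Polyadenylated RNA of 10 libraries of O9-1 cells was examined, grouped by their labels into WT (n = 4), Kat5-ko (n = 3) and Ep400-ko (n = 3). The authors deposited raw counts, which are whole numbers of reads per gene from paired Illumina reads of stranded libraries mapped to mm10. The submitters' processing notes name bcl2fastq 2.20, STAR 2.7.3, R 4.2.1 and DESeq2 1.36.0, while the counting program, its strand setting and the annotation are not given in the sources used here. The deposited tables of normalized counts were not used.

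Within each comparison, the whole table was filtered with filterByExpr and scaled by TMM. The quasi-likelihood test of edgeR 4.0.16 in R 4.3.3 was used with robust dispersion and group as the only term. Values of p were adjusted over all genes tested by the method of Benjamini and Hochberg. Called genes were counted as DEGs if they changed at least 1 log2 unit in size and 1 of the groups averaged over 100 counts, normalized by size factors of DESeq2 1.42.0. limma 3.58.1 served for an alternative. Count ratios have exact binomial intervals at 95%. Exon lengths and positions were taken from GENCODE M21 on GRCm38, which is mm10, and promoter sequences from RefSeq. On simulated data with 200 changed genes, the procedure recovered 138 of them with 12 false calls for Kat5-ko against WT (13434 genes) and 143 with 6 false calls for Ep400-ko against WT (13836 genes).

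The genes, the lists of other pathway genes and markers and the tests were chosen with earlier results of these data known. Values in every library are given for Wnt genes that were called in any comparison, that changed at least 1 log2 unit without overlap of the groups, or that were among the 3 highest per kb of their role in WT. The result of 1 marker list is not reported here. Other pathway genes were to be named if called with a change of at least 1 log2 unit in a comparison with WT. Genes outside these rules were named after their values were seen. They were Wnt10b, Wnt16, Rspo3, Ror1, Fzd6, Fzd9, Lef1, Ctnnb1, Ryk, Csnk1e, Msx1, Wls, Myc and Ccnd1. Replicate numbers did not pair libraries, with correlations of -0.096 to 0.22 between same-numbered libraries over 9 pairs. Replicates differed by more than sampling noise, with chi-square per degree of freedom of 28.1 to 258. Alternatives covered other tools, filters, normalizations and fits, removal of the median shift of each chromosome, a replicate block and each library left out in turn. Where a call appeared only without 1 library, that library was named after the values were seen. Such a call is no separate test.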

Additional observations from a re-analysis of the deposited data

Results flagged for a closer look

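In 5 of 34 Wnt genes checked, 1 of the 4 wildtype libraries lay far from the other 3 by Dixon's criterion, which chance meets in about 1 of 20 groups. Rspo4 was at 9.79 CPM in WT/2, and the other wildtype libraries were between 0.391 and 1.13 CPM. Sfrp1 was at 7.96 CPM in WT/3, compared to 2.77 to 3.42 CPM in the others, which is still below the lowest Ep400-ko clone at 49.7 CPM. Wnt5b was low in WT/3 with 0.809 CPM, Fzd4 was low in WT/1 with 2.33 CPM and Fzd3 was low in WT/2 with 0.867 CPM.

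Tcf7 differed between the knockouts in the direct comparison, with a log2-fold change of 1.82 between Ep400-ko and Kat5-ko. The Kat5-ko clones had 3.09 to 8.63 CPM and the Ep400-ko clones 18.8 to 28.1 CPM.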

How the results depend on the processing

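No direction reversed under the alternatives run for any gene that was called or whose groups did not overlap at a change of at least 1 log2 unit. Dkk2, which was not called, changed sign in Ep400-ko without Ep400/2. Of the results of these genes under each alternative, 256 remained on the same side of the threshold, 30 passed it only under the alternative and 31 lost it. Nkd2, Sfrp1 and Wnt7a were called in Ep400-ko against WT under all 17 alternatives, Fzd3, Fzd7 and Rnf43 under 16, and Fzd1, Fzd8 and Wnt4 under 10. Of these, Wnt7a, Rnf43 and Wnt4 passed the count filter through their Ep400-ko counts, with 5, 4 and 27 counts in WT. Their numbers of calls are not on a par with those of the genes tested in every comparison. Tcf7 was called between the knockouts under 9 of 16.

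For Kat5-ko against WT, where 0 Wnt genes were called, DESeq2's Wald test called 5 of 31 (4 DEGs), compared to 1382 of all 14645 genes. The bias-adjusted quasi-likelihood fit, removal of chromosome shifts, limma voom and no filter on low counts each called 1, which was also a DEG. Over all genes, these called 182, 66, 98 and 286 in that order. For Ep400-ko against WT, 9 called genes and 6 DEGs became 3 and 2 with a replicate block, in which Fzd1 (adjusted p = 0.15), Fzd3 (0.108), Fzd7 (0.0908), Fzd8 (0.154), Rnf43 (0.0675) and Wnt4 (0.0952) lost the call. Over all 13836 genes tested, the block took the calls from 1899 to 166. The replicate numbers mark different things in wildtype samples and clones and do not pair them. Between the knockouts, where 1 gene was called, DESeq2 called 5 (4 DEGs), the bias-adjusted fit 4 (4 DEGs), limma voom 3 (3 DEGs), removal of chromosome shifts 2, no filter 2 and a fit of all 10 libraries 7 (5 DEGs), while a filter on a mean count of 2 left 0 (12 at an unadjusted p). The replicate block there called Fzd1 and lost Tcf7 (adjusted p = 0.0581). The cause of these differences was not tested.

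With 1 library left out, 0 to 7 Wnt genes were called for Kat5-ko against WT (0 to 3 DEGs), 6 to 9 for Ep400-ko against WT (3 to 7 DEGs, the lowest without WT/2) and 0 to 7 between the knockouts (0 to 5 DEGs), the highest in both comparisons with Kat5-ko being those without Kat5/1. Over all genes, 2654 of 13703 were then called against WT and 2537 of 14095 between the knockouts. The quasi-likelihood fits without robust dispersion and with bias adjustment were chosen after seeing the data. Counts were too low for any test in 22 of 56 Wnt genes.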

Other observations

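Some values of cells and pathway belong to no comparison above. The 12 neural crest markers summed to 321 to 365 CPM in WT, 313 to 379 CPM in Kat5-ko and 369 to 430.3 CPM in Ep400-ko. The 6 bone and cartilage markers summed to 74.6 to 118 CPM in WT, 61.8 to 121 CPM in Kat5-ko and 66.6 to 124 CPM in Ep400-ko, with Sp7, Alpl, Bglap and Col2a1 below 1 CPM in all libraries. For the 5 neuronal markers the sums were 2.97 to 5.01 CPM in WT, 1.56 to 10.1 CPM in Kat5-ko and 5.3 to 22.9 CPM in Ep400-ko, with only Tubb3 above 1 CPM in any library. The 4 epithelial markers summed to 1.62 to 4.69 CPM in WT, at most 0.826 CPM in Kat5-ko and at most 0.92 CPM in Ep400-ko, with Cdh1 and Epcam below 1 CPM in all libraries.

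Wls, the carrier that brings Wnt proteins to the cell surface, had 107 to 151 CPM in WT, 85.6 to 105 CPM in Kat5-ko and 114 to 282 CPM in Ep400-ko. Myc and Ccnd1, growth genes often listed as targets of beta-catenin, ranged from 102 to 180.4 CPM and from 846 to 1167 CPM in WT, from 172 to 295 CPM and from 1399 to 1628 CPM in Kat5-ko, and from 70.8 to 266 CPM and from 739 to 2112 CPM in Ep400-ko. In Kat5-ko Ccnd1 lay above all WT libraries in every clone, as 9.66% of all genes did, and was not called by edgeR. In Ep400-ko 1 clone lay below.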
